A study of Homo sapiens with 21 samples.

Results

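Proteoglycans and the enzymes that make hyaluronan were followed through TGFβ treatment by the symbols of 10 genes, *BGN*, *DCN*, *LUM*, *FMOD*, *VCAN*, *SDC1*, *SDC2*, *GPC1*, *HAS2* and *HAS3*, all 10 of which were among the 23201 symbols listed. The cells were HMLE, a human mammary epithelial line that has been immortalized, either left untreated (d0) or treated for 1, 4, 7, 10, 15 or 20 days with TGFβ, which drives epithelial-mesenchymal transition (EMT) in them. Bulk RNA-seq gave 3 libraries per timepoint, 21 over the 7 timepoints, described in the study as biological triplicates. Untreated cells were sampled at d0 only, so the effects of TGFβ and of time in culture cannot be told apart.

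A proteoglycan is a core protein that carries long sulfated sugar chains. Biglycan, decorin, lumican and fibromodulin, encoded by *BGN*, *DCN*, *LUM* and *FMOD*, are small leucine-rich proteoglycans that bind collagen fibres, and decorin and biglycan also bind TGFβ. Versican, encoded by *VCAN*, is a large chondroitin sulfate proteoglycan that binds hyaluronan, whereas the syndecans (*SDC1*, *SDC2*) span the plasma membrane and glypican-1 (*GPC1*) is tethered to it by a lipid anchor, and both kinds carry heparan sulfate and act as co-receptors for growth factors. Hyaluronan itself has no core protein and is extruded through the plasma membrane by the synthases *HAS2* and *HAS3*.

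The values were normalised read counts, each a whole number of reads divided by 1 size factor per library, and the libraries held between 18847917 and 22667754 reads. In bulk RNA, fewer cells of a type and less RNA per cell cannot be told apart. The basal epithelial markers fitted the label, with *KRT5* at 224350 ± 8440.7 (SD, n = 3) and *CDH1* at 7194.9 ± 215.78 at d0. All 7 summed to between 345862 and 369977 at d0 and between 274070 and 277205 at d20. The sum ranged from 345440 to 708129 at d7 and from 497745 to 514247 at d15. From d0 to d20 *EPCAM* went from 2106 ± 52.374 to 402.4 ± 14.717, and *KRT5*, *CDH1* and *TP63* were also lower. *ITGA6* went from 8585.9 ± 177.71 to 19058 ± 529.16. *KRT14* (72774 to 91697) and *KRT17* (39309 to 48718) were also higher. The summed mesenchymal markers (*VIM*, *FN1*, *CDH2* and *ZEB1*) ranged from 9284.5 to 9681.66 at d0 and from 595208 to 613196 at d20. The 7 hematopoietic and endothelial markers summed to between 97.9 and 109.42 at d0 and between 22.1 and 47.34 on the treated days. *PTPRC*, *CD3E* and *CDH5* were at or near 0. At d0 *CD14* and *PECAM1* had means of 46.353 and 41.323, and *VWF* and *CD79A* of 8.3267 and 5.7533. The summed proliferation genes were lowest at d15, between 16588.9 and 17060, against 47307.4 to 48861.6 at d0 and 48305.7 to 50259.3 at d20, and the part of proliferation in the results at d15 was not tested. One d7 library stood apart, differing by up to 0.4723 (root mean square on the log2 scale) from the other d7 libraries. The 18 pairs of libraries at the other timepoints differed by 0.2139 to 0.2429. The d7 library that stood apart was nearer to the means of d4 (0.4271) and d20 (0.4307) than to that of the other d7 libraries (0.4509). Results at d7 are therefore given with and without it where it changed a call. Each gene's spread was estimated from all 21 libraries together, so this library also entered the standard errors of comparisons without d7. Those were repeated without it only when the 2 timepoints compared were fitted alone.

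Of the 10 genes, 7 had a mean normalised read count of at least 10 and were tested with limma, on log2(normalised read count + 1), among 13343 genes. *HAS2* passed this filter only through its values at d10 and d20. At d1, 3 of the 7 genes were higher than at d0 (*VCAN*, *SDC1* and *HAS2*), beside 31.3% of all genes tested, and 2 were lower (*BGN* and *GPC1*), beside 28.5%. At d4, 4 were higher, with *SDC2* added to those at d1, beside 36.9%, and 2 were lower, again *BGN* and *GPC1*, beside 35.3%. At d7, 6 were higher, every tested gene but *HAS3*, beside 34.6%, and 0 were lower, beside 32.6%. The *HAS2* calls at d4 and d7 rest on at most 3 reads per library. The *BGN* call at d7 was lost on leaving out single libraries, as given below. At d10, *VCAN*, *SDC1*, *SDC2* and *HAS2* were higher, 4 genes beside 37.0%, and *BGN*, *GPC1* and *HAS3* were lower, 3 genes beside 30.7%. At d15, 5 were higher (*BGN*, *VCAN*, *SDC2*, *GPC1* and *HAS2*), beside 39.2%, and 0 were lower, beside 37.3%. At d20, the same list without *GPC1*, 4 genes, was higher, beside 32.5%, and 0 were lower, beside 30.2%. All 6 of these comparisons share the d0 libraries. Calls were frequent among all genes on every day, so the counts describe these 7 genes and are not read as particular to them.

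**Figure D1:**
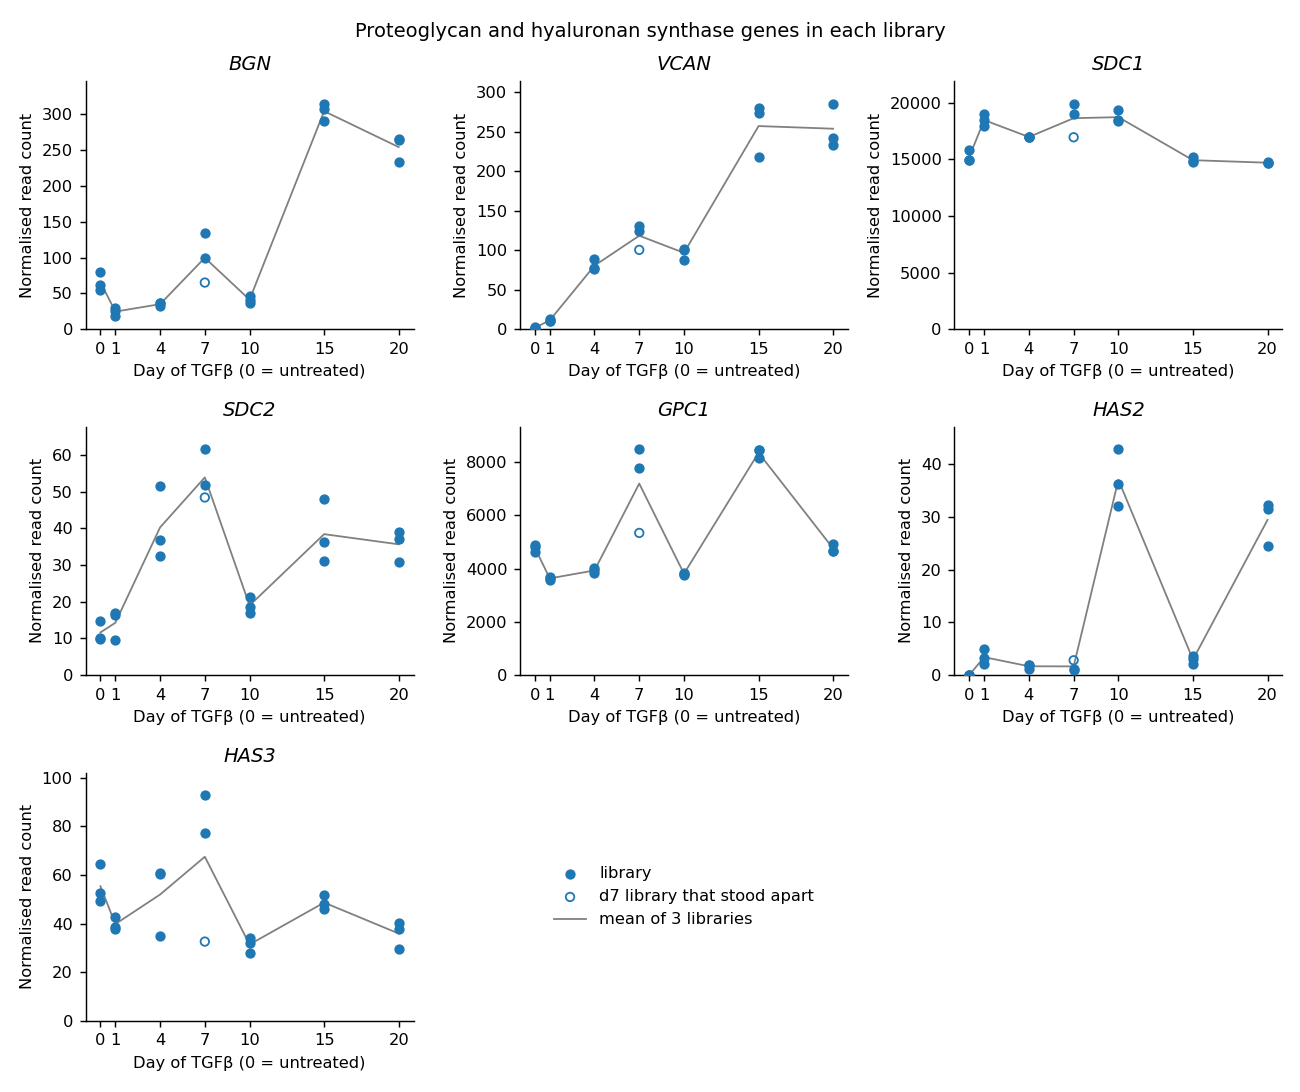
Normalised read count (y axis, from 0, a scale for each gene) of the 7 tested genes by day of TGFβ (x axis, d0 untreated). Filled points are libraries, the open point is the d7 library that stood apart, and the line joins the means of 3 libraries. *VCAN* climbed from at most 3.39 at d0 to between 218.57 and 280.39 at d15, and *HAS2* exceeded 24 only at d10 and d20.

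Of the small leucine-rich proteoglycans, only *BGN* was measurable. *DCN* had 2 reads and *LUM* 2 reads over all 21 libraries together, and *FMOD* had 1. No library held more than 1 read of any of these 3 genes, below the limit of 3 reads that a count of 0 allows, which covers counting error only. Their expression was thus not detectable at this depth before or during treatment.

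*BGN* had normalised read counts of 62.3, 79.73 and 55.41 at d0, 29.29, 25.64 and 18.86 at d1, and 32.6, 36.03 and 36.23 at d4. At d7 its libraries read 135.08, 99.04 and 65.15, and at d10 45.78, 40.81 and 37.16. At d15 they read 315.21, 307.52 and 291.08, and at d20 264.99, 265.22 and 233.05. The gene was therefore lowest at d1, dropped again at d10, and was highest on the last 2 days, when no library overlapped any earlier one. In the order of the means (d15, d20, d7, d0, d10, d4, d1), only d7 and d0 overlapped. *BGN* fell by 1.39 on the log2 scale at d1 (SE 0.196, limma adjusted p = 3.29e-06), by 0.88 at d4 (adjusted p = 0.000432) and by 0.65 at d10 (adjusted p = 0.00609). It rose by 2.21 at d15 (SE 0.196, adjusted p = 1.34e-09) and by 1.95 at d20 (adjusted p = 2e-08), with means 4.63 and 3.87 times that of d0. Its rise of 0.55 at d7 (adjusted p = 0.0183) was lost without either the d0 library at 62.3, the d0 library at 55.41 or the d7 library at 135.08 (0.52, 0.43 and 0.30, with adjusted p of 0.0516, 0.0896 and 0.169), and with rescaling to the same total (0.36, adjusted p = 0.102). Without the d7 library that stood apart it was 0.82.

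*VCAN*, absent or nearly so from untreated cells, was above its d0 level on every treated day. Its normalised read counts were 0.89, 3.39 and 0.99 at d0, 10.46, 12.31 and 10.92 at d1, and 88.34, 76.93 and 76.38 at d4. They were 130.86, 124.07 and 100.52 at d7 and 87.58, 102.03 and 100.72 at d10. They reached 273.39, 280.39 and 218.57 at d15 and 242.73, 233.64 and 285.93 at d20. The 18 treated libraries all lay above the 3 untreated ones, and the levels formed steps, with d15 and d20 overlapping, then d7, d10 and d4 overlapping as neighbours, then d1, then d0. Since d0 held 6 reads in all, the fold is given with its 95% counting interval, which was 6.201 (2.566 to 18.1) at d1, 44.38 (20.09 to 122.1) at d4 and 140.8 (64.37 to 384.8) at d20. On the log2 scale, limma gave rises from 2.26 (SE 0.221, adjusted p = 1.57e-08) at d1 to 6.66 (adjusted p = 8.73e-17) at d15. The range of the timepoint means was 6.66 on the log2 scale, wider than in 99.81% of the genes tested. An antisense gene, *VCAN-AS1*, shares 453 exon bases with *VCAN* in GENCODE 29, and as no strand setting was stated, reads of both cannot be told apart.

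*SDC1*, the main syndecan of epithelia, stayed within a narrow range. Its normalised read counts were 14941, 14909 and 15808 at d0, 19013, 17969 and 18450 at d1, and 16952, 17006 and 16997 at d4. They were 19936, 19038 and 16960 at d7 and 19336, 18453 and 18428 at d10. They were 15205, 14835 and 14766 at d15 and 14664, 14817 and 14651 at d20. Libraries of d1, d4, d7 and d10 all lay above those of d0, those of d15 overlapped d0, and those of d20 lay just below it. The rises were small, 0.28 on the log2 scale at d1 (SE 0.0446, limma adjusted p = 1.57e-05), 0.16 at d4 (adjusted p = 0.00327), 0.29 at d7 (adjusted p = 7.59e-06) and 0.30 at d10 (adjusted p = 4.48e-06). At d15 and d20 the difference was -0.03 (adjusted p = 0.595) and -0.05 (adjusted p = 0.355). Rescaling every library to the same total moved the median of all genes by -0.200 to -0.144 against d0, and with it *SDC1* was 0.09 at d1 (adjusted p = 0.0636), -0.04 at d4 (adjusted p = 0.397) and 0.07 at d10 (adjusted p = 0.111), and fell by 0.19 at d15 and 0.25 at d20 (adjusted p = 0.000287 and 1.44e-05). The range of its timepoint means, 0.35 on the log2 scale, was wider than in only 8.80% of the genes tested.

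*SDC2*, a syndecan more typical of mesenchymal cells, rose from a low level. Its normalised read counts were 9.79, 10.18 and 14.84 at d0, 9.41, 16.41 and 16.87 at d1, and 36.81, 51.61 and 32.31 at d4. They were 51.71, 61.51 and 48.4 at d7 and 16.92, 21.38 and 18.58 at d10. They were 47.94, 36.18 and 31.08 at d15 and 30.74, 38.94 and 37.21 at d20. The libraries of d4, d7, d15 and d20 all exceeded those of d0, d1 and d10, while d0 and d1 overlapped. The rise over d0 was 1.71 on the log2 scale at d4 (SE 0.238, limma adjusted p = 1.64e-06), 2.14 at d7 (adjusted p = 8.91e-08), 1.64 at d15 (adjusted p = 2.19e-06) and 1.55 at d20 (adjusted p = 7.93e-06). At d1 it was 0.25 (adjusted p = 0.372). The rise of 0.68 at d10 (adjusted p = 0.0158) was lost without the d0 library at 9.79, the d0 library at 10.18 or the d10 library at 21.38 (0.58, 0.60 and 0.59, with adjusted p of 0.0652, 0.0566 and 0.0606), with DESeq2 (adjusted p = 0.0691) and with rescaling to the same total (adjusted p = 0.0826).

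*GPC1*, a glypican, moved up and down between timepoints. Its normalised read counts were 4635.7, 4821.1 and 4903.4 at d0, 3684.8, 3579.3 and 3630.2 at d1, and 3938.5, 4037.1 and 3819.8 at d4. They were 8482.5, 7768.2 and 5341.5 at d7 and 3843.4, 3810.1 and 3772.5 at d10. They were 8443.4, 8171 and 8449.7 at d15 and 4928.8, 4672.9 and 4672.8 at d20. All 9 libraries of d1, d4 and d10 were below d0, all 6 of d7 and d15 were above it, and d20 overlapped d0. It fell by 0.40 on the log2 scale at d1 (SE 0.0956, limma adjusted p = 0.00119), by 0.28 at d4 (adjusted p = 0.0116) and by 0.33 at d10 (adjusted p = 0.00453). It rose by 0.56 at d7 (adjusted p = 2.64e-05), or by 0.76 without the d7 library that stood apart, and by 0.80 at d15 (adjusted p = 1.28e-07). At d20 the difference was -0.01 (adjusted p = 0.943), which became -0.21 with rescaling to the same total (adjusted p = 0.0483).

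**Figure D2:**
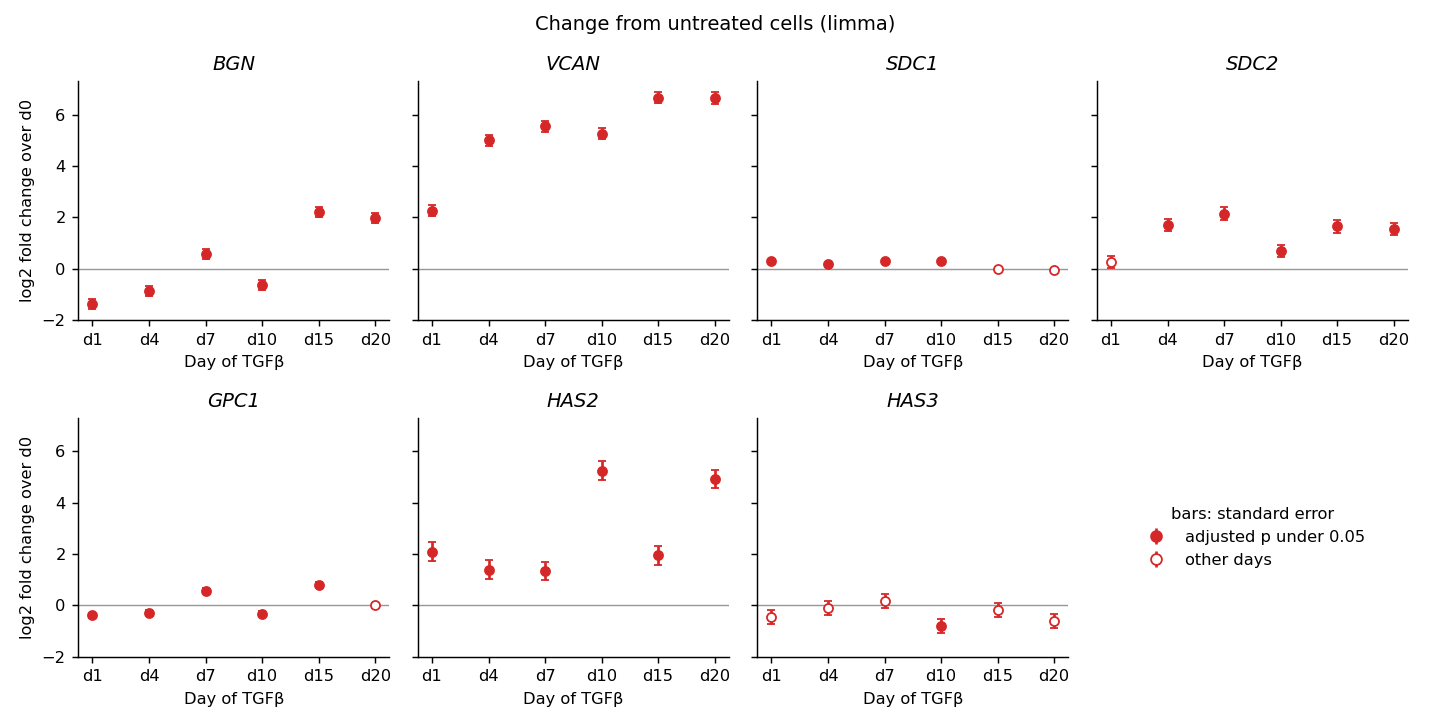
Log2 fold change over untreated cells (y axis, limma, bars are standard errors) by day of TGFβ (x axis) for the 7 tested genes, with filled points where the adjusted p was under 0.05. *BGN* and *GPC1* lay below 0 at d1, d4 and d10 and above it at d7 and d15, *VCAN* lay above 0 on all 6 days, and the *HAS2* points at d4 and d7 rest on at most 3 reads per library.

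*BGN* and *GPC1* were both called lower than d0 at d1, d4 and d10 and both called higher at d7 and d15, with the *BGN* call at d7 resting on single libraries as given above. They parted at d20, when *BGN* was higher and *GPC1* differed by -0.01, and *VCAN* was higher on every treated day. Over the 21 libraries, which share 7 timepoints, Pearson's r of the log2 values was 0.767 between *BGN* and *GPC1* and 0.566 between *BGN* and *VCAN*. The promoters of these 3 genes are shown for that reason, each from 250 bases before to 50 bases after the start of transcription in RefSeq (GRCh38.p14), 5′ to 3′ on the strand of the gene. The *BGN* window was chrX:153494730-153495029 and the *GPC1* window chr2:240435413-240435712, both on the plus strand. The *VCAN* window was chr5:83471494-83471793, also on the plus strand. Capitals mark the GC box, GGGCGG, on either strand.
BGN: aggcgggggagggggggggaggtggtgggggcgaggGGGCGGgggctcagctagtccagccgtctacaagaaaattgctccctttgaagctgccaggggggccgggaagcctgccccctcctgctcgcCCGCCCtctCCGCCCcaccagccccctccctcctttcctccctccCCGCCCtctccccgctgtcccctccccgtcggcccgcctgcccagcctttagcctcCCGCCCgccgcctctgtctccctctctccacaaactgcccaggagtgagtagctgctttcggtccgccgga
GPC1: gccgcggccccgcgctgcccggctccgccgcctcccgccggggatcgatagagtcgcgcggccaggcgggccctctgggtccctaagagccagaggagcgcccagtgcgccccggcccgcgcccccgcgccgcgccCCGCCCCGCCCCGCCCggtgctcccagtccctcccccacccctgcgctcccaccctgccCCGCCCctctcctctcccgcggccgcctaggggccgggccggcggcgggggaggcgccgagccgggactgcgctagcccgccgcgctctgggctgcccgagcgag
VCAN: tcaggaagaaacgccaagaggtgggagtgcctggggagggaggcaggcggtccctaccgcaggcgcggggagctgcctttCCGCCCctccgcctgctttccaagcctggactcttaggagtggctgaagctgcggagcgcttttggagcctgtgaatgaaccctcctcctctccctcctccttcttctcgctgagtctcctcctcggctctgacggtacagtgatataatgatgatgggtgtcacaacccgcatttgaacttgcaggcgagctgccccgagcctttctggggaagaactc
The *BGN* window held 5 GC boxes and the *GPC1* window 4, of which 3 overlapped end to end, and the *VCAN* window held 1. A GC box was present in 45.0% of the 35116 promoters of the same length. Both strands were also searched for the E-box CAGGTG, which 20.6% of all promoters held, and for the SMAD box CAGACA, which 16.9% held. Further searches were for the AP-1 motif TGANTCA, held by 7.7%, and for the TATA box spelled TATAAA, held by 11.5%. None of these 4 motifs occurred in the 3 windows shown. Promoters were matched for 6 of the 10 genes, with 2 entries for *SDC1*. Among the other matched windows, *HAS3* held 1 GC box, *FMOD* 2 GC boxes and 1 TATA box, and the 2 *SDC1* entries 1 GC box each, 1 of these entries also holding 1 E-box and 1 SMAD box.

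The hyaluronan synthases took different courses. *HAS2*, the synthase most often linked with mesenchymal cells, had 0 reads in each untreated library. Its normalised read counts were 3.14, 2.05 and 4.96 at d1, 1.05, 1.95 and 1.96 at d4, and 1.06, 1.04 and 2.79 at d7. They were 42.79, 32.07 and 36.18 at d10, 2.04, 3.62 and 3.11 at d15, and 24.38, 31.57 and 32.31 at d20. The d10 and d20 libraries overlapped each other and lay above all others, and the d15 libraries between them in time were back among those of d1. With d0 set at the floor of 3 reads per library, *HAS2* was at least 13.57-fold higher at d10 (113 reads in 3 libraries) and at least 10.79-fold higher at d20 (86 reads), and at least 1.24-fold higher at d1 (10 reads) and 1.072-fold at d15 (9 reads). At d4 and d7 no library held more than 3 reads, so no fold is given although limma called both days (adjusted p = 0.00195 and 0.00305). The limma adjusted p was 4.6e-11 at d10 and 1.45e-10 at d20. Since *HAS2* entered the test only through its values on these 2 days, these p-values are not taken as support. Without the d7 library that stood apart, the call at d7 was lost (adjusted p = 0.0574), and quantile normalization ended those at d1 and d15 (adjusted p = 0.0664 and 0.144). *HAS2-AS1* shares 201 exon bases with *HAS2* on the other strand and had values from 0 to 4.21.

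*HAS3*, a synthase found in many epithelia, was measurable in every library. Its normalised read counts were 52.51, 49.19 and 64.31 at d0, 38.7, 37.95 and 42.67 at d1, and 34.71, 60.37 and 60.71 at d4. They were 77.04, 92.79 and 32.58 at d7 and 27.87, 32.07 and 34.22 at d10. They were 47.94, 46.13 and 51.79 at d15 and 29.68, 37.89 and 40.15 at d20. The libraries of d1, d10 and d20 all lay below those of d0, and those of d4, d7 and d15 overlapped them. *HAS3* fell by 0.79 on the log2 scale at d10 (SE 0.271, limma adjusted p = 0.0135), a call lost without the d0 library at 64.31 or the d10 library at 27.87 (adjusted p = 0.0584 and 0.0505). At d20 the difference was -0.61 (adjusted p = 0.055), and at d1 -0.46 (adjusted p = 0.151). With rescaling to the same total both days were called lower, at -0.81 and -0.65 (adjusted p = 0.0113 and 0.0387). Both were also called lower with only the 2 timepoints compared (adjusted p = 0.00452 at d20 and 0.0212 at d1). Quantile normalization called d20 (adjusted p = 0.0342) but not d1 (adjusted p = 0.19), and edgeR and DESeq2 called neither day. At d7 it was 0.16 (adjusted p = 0.612) with all libraries and 0.61 (adjusted p = 0.00901) without the d7 library that stood apart, which was the d7 library at 32.58. Exons of *CHTF8*, with values from 1762 to 3198, share 365 bases with *HAS3* on the other strand, and reads from this stretch cannot be told apart without strand.

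**Figure D3:**
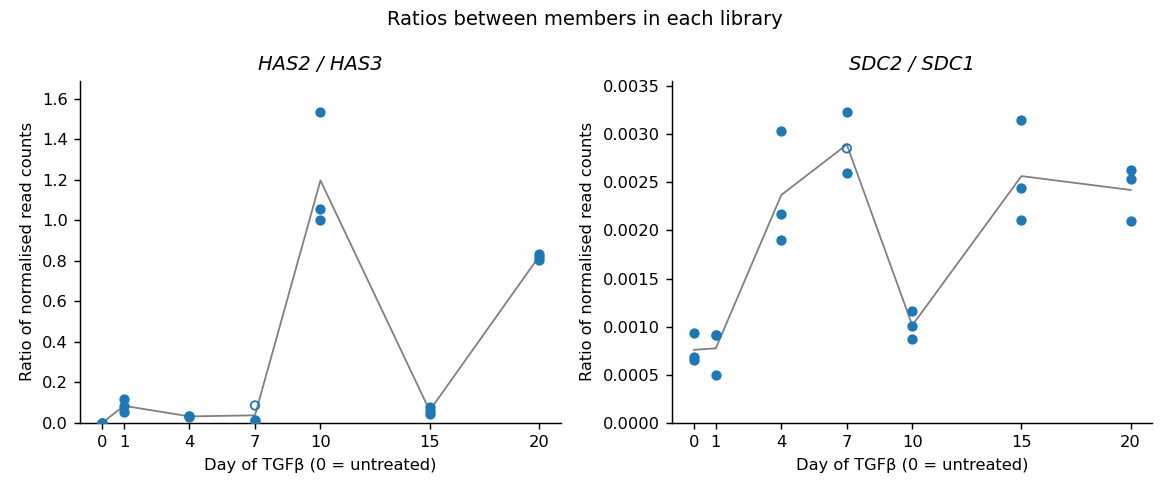
Ratio of normalised read counts within each library (y axes, from 0) by day of TGFβ (x axis) for *HAS2* to *HAS3* and *SDC2* to *SDC1*, with lines through the means of 3 libraries and the d7 library that stood apart as an open point. *HAS2* to *HAS3* reached 1 to 1.535 at d10 and 0.8047 to 0.8332 at d20, and *SDC2* to *SDC1* was lowest at d0, d1 and d10.

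Ratios of normalised read counts within each library, in which a gene's length is the same at every timepoint, set these changes side by side. The ratio of *HAS2* to *HAS3* was 0 at d0, between 1 and 1.535 at d10 and between 0.8047 and 0.8332 at d20. On the other treated days it lay between 0.01121 and 0.1162, so d10 and d20 stood apart from all other timepoints. The log2 ratio of *SDC2* to *SDC1* was -10.38 ± 0.28 (SD, n = 3) at d0 and -10.39 ± 0.51 at d1, then -8.75 ± 0.35 at d4 and -8.44 ± 0.16 at d7. It returned to -9.96 ± 0.20 at d10 and was -8.63 ± 0.30 at d15 and -8.70 ± 0.18 at d20. Among the treated days after d1, d10 thus had the highest ratio of *HAS2* to *HAS3* and the lowest of *SDC2* to *SDC1*.

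Comparisons of each treated day with the one before placed these moves in time, again with limma over all genes. From d1 to d4, 3 of the 7 genes rose (*BGN*, *VCAN* and *SDC2*), beside 32.9% of all genes, and 1 fell (*SDC1*), beside 32.0%. *VCAN* gained 2.74 on the log2 scale (adjusted p = 1.4e-09) and *SDC2* 1.45 (adjusted p = 1.97e-05). The *BGN* gain of 0.51 (adjusted p = 0.0277) was lost without the d1 library at 18.86 or either d4 library at 36.03 and 36.23 (adjusted p = 0.166, 0.0677 and 0.0693), and with edgeR and DESeq2 (adjusted p = 0.125 and 0.0864). The *SDC1* drop of 0.12 (adjusted p = 0.0221) was lost without the d1 library at 19013 or the d4 library at 16952 (adjusted p = 0.0926 and 0.0507). *HAS2*, with 10 reads at d1 and 5 at d4, was not called (adjusted p = 0.104), but was called lower without the d1 library at 2.05 (adjusted p = 0.0495). From d4 to d7, 4 genes rose (*BGN*, *VCAN*, *SDC1* and *GPC1*), beside 25.5%, and 0 fell, beside 25.5%. *BGN* gained 1.43 (adjusted p = 4.8e-06) and *GPC1* 0.84 (adjusted p = 3.9e-07). The *VCAN* gain of 0.55 (adjusted p = 0.0453) was lost on leaving out any library of these days except the d7 library that stood apart (adjusted p from 0.0552 to 0.13), and the *SDC1* gain of 0.13 (adjusted p = 0.0184) on leaving out the d7 library at 19936 or at 19038 (adjusted p = 0.134 and 0.0643). Without the library that stood apart, *HAS3* rose too (0.74, adjusted p = 0.00259).

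From d7 to d10, 1 gene rose (*HAS2*), beside 36.2%, and 4 fell (*BGN*, *SDC2*, *GPC1* and *HAS3*), beside 35.2%. *HAS2*, with 5 reads in all at d7, was at least 12.22-fold higher at d10 when d7 was set at 3 reads per library (limma adjusted p = 6.19e-09). On the log2 scale *SDC2* fell by 1.46 (adjusted p = 1.38e-05), *BGN* by 1.20 (adjusted p = 1.44e-05), *HAS3* by 0.96 (adjusted p = 0.00352) and *GPC1* by 0.89 (adjusted p = 4.5e-08). The *HAS3* ranges overlapped, and its call was lost with quantile normalization and with only the 2 timepoints compared (adjusted p = 0.0645 and 0.0517). From d10 to d15, 5 genes rose (*BGN*, *VCAN*, *SDC2*, *GPC1* and *HAS3*), beside 39.3%, and 2 fell (*SDC1* and *HAS2*), beside 40.5%. *BGN* gained 2.86 (adjusted p = 1.83e-11) and *GPC1* 1.13 (adjusted p = 5.31e-10), the mean of *VCAN* rose to 2.66 times that at d10 (adjusted p = 6.73e-06), and *HAS2* fell (adjusted p = 4.28e-08), d10 being 12.53 times d15 (95% counting interval 6.373 to 28.12). The *HAS3* gain of 0.62 (adjusted p = 0.0421) was lost on leaving out any 1 of the 6 libraries (adjusted p from 0.052 to 0.119). Its libraries did not overlap, at 27.87 to 34.22 at d10 and 46.13 to 51.79 at d15. The *HAS3* call was kept when only these 2 timepoints were compared. From d15 to d20, 1 gene rose (*HAS2*, to 10 times d15, 95% counting interval 5.031 to 22.61, adjusted p = 2.69e-07), beside 37.7%, and 1 fell (*GPC1*, by 0.81, adjusted p = 1.36e-07), beside 36.3%. *BGN* and *VCAN* differed by -0.26 and -0.02 over this step (adjusted p = 0.235 and 0.952). The libraries of the 2 days overlapped for *VCAN* but not for *BGN*. With only these 2 timepoints compared, limma called *BGN* lower (adjusted p = 0.00308), and also *HAS3* (-0.44, adjusted p = 0.0326). Successive comparisons share the libraries of the day between them. The *HAS2* p-values here, too, belong to a gene that passed the filter only through d10 and d20.

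The genes whose log2 values most resembled each member over the 21 libraries were taken from 5227 tested genes whose timepoint means spanned at least 1 on the log2 scale. These correlations are descriptions across libraries that share 7 timepoints. *VCAN* was closest to *POSTN*, which encodes the matricellular protein periostin (r = 0.988), then *CREB3L1*, a membrane-bound transcription factor (r = 0.980), and *SPATA20* (r = 0.977). *POSTN* was listed at 0 at d0 and had means of 115.3 at d4 and 800.8 at d15. *BGN* was closest to *PDGFRB*, a receptor for platelet-derived growth factor (r = 0.933), *ABI3BP*, a matrix protein (r = 0.920), and *SDSL* (r = 0.911), and *ABI3BP* went from a mean of 110.7 at d0 to 2203 at d15. *GPC1* was closest to *DDB2*, which recognises damaged DNA (r = 0.982), *C2orf55* (r = 0.981) and the carboxylesterase *CES2* (r = 0.974). *DDB2* had its highest means on the same days as *GPC1*, 2863 at d7 and 3860 at d15.

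*HAS2* was closest to *PLOD2*, a lysyl hydroxylase that modifies collagen (r = 0.956), *NCEH1* (r = 0.952) and *EHD3* (r = 0.951). The mean of *PLOD2* was 5508 at d10 and 6370 at d20, against 1809 at d0 and 2980 at d15. *SDC2* was closest to *CERCAM* (r = 0.907), the secreted glycoprotein gene *DKK3* (r = 0.906) and the lysosomal sulfatase *ARSA* (r = 0.896). The r values were lower for *HAS3*, whose nearest genes were *CLCA2* (r = 0.849), the interferon-induced *IFIT2* (r = 0.842) and *ARHGEF37* (r = 0.842), and for *SDC1*, with the connexin *GJB5* (r = 0.850), *PLEKHN1* (r = 0.849) and *MOBKL2B* (r = 0.822). Among the members themselves, r was highest between *VCAN* and *SDC2* (0.790) and lowest between *HAS2* and *HAS3* (-0.664).

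The 7 lists of other genes of these pathways held 97 symbols, of which 69 were tested. At d20, 43 of the 69 were higher than d0 and 12 were lower, with a median log2 fold change of 0.50, beside 32.5% higher, 30.2% lower and a median of -0.00 over all genes tested. Rescaling to the same total gave 36 higher and 16 lower, with no share of all genes taken. At d1 the counts were 39 and 11, beside 31.3% and 28.5% of all genes, and at d15 45 and 11, beside 39.2% and 37.3%.

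**Figure D4:**
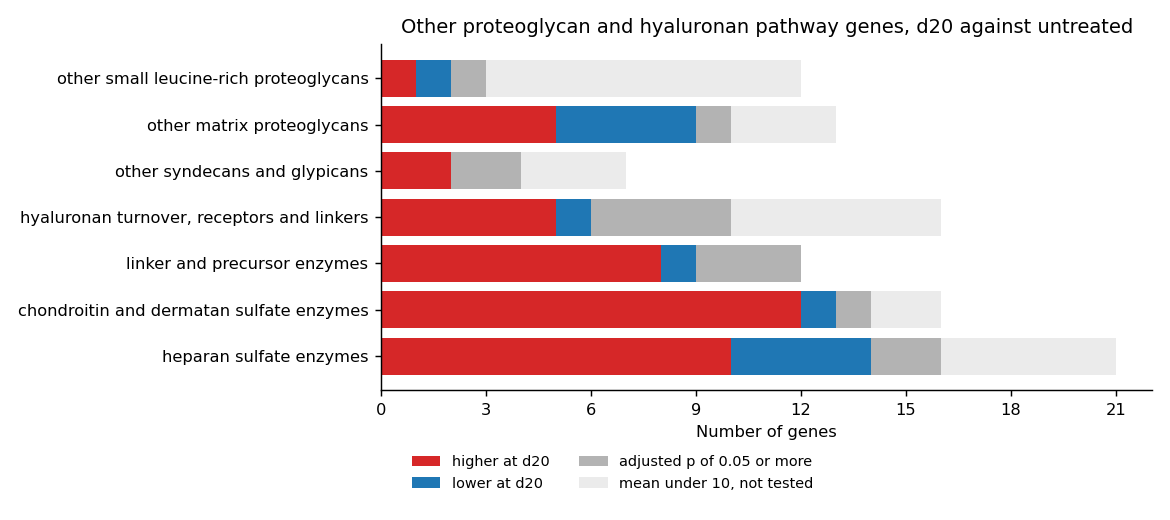
Number of genes (x axis) in each of 7 lists of other proteoglycan and hyaluronan genes (y axis), divided into higher at d20, lower at d20, tested without a call, and not tested because the mean was under 10. The enzymes of chondroitin and dermatan sulfate had 12 higher and 1 lower of 14 tested, and the other small leucine-rich proteoglycans had 3 of 12 tested.

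Of the other small leucine-rich proteoglycans, 3 of 12 were tested, and at d20 1 rose and 1 fell. *PODNL1* rose by 1.16 on the log2 scale (limma adjusted p = 7.68e-05), with its highest mean of 293 ± 17.74 at d15, and *ECM2* fell by 1.16 (adjusted p = 0.0015). Of the other matrix proteoglycans, 5 of 10 tested genes rose and 4 fell. *SPOCK1*, encoding testican-1, went from a mean of 149.2 ± 4.755 at d0 to 2956 ± 107.9 at d20 (log2 fold change 4.30, adjusted p = 4.33e-25). *ACAN*, encoding aggrecan, the cartilage relative of versican, had 1 read at d0 and was at least 51.06-fold higher at d20 and at least 76.01-fold at d15. *SRGN*, encoding serglycin, a proteoglycan of secretory granules, rose by 2.18 (adjusted p = 4e-10). Of the other syndecans and glypicans, 2 of 4 tested genes rose and 0 fell. *SDC3* rose by 0.79 (adjusted p = 1.24e-09). The rise of 0.12 in *SDC4* (adjusted p = 0.0466) was lost on leaving out 4 of the 6 libraries, 1 at a time (adjusted p from 0.0803 to 0.372). That call was also lost with edgeR and DESeq2 (adjusted p = 0.13 and 0.072) and without the filter in limma (adjusted p = 0.0642). The difference in *SDC4* was -0.08 with rescaling to the same total.

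Of the genes for hyaluronan turnover, its receptors and its linkers, 5 of 10 tested genes rose at d20 and 1 fell. *CD44*, the main hyaluronan receptor, went from a mean of 11610 ± 206.4 at d0 to 33120 ± 377.1 at d4 and 19350 ± 270.8 at d20 (log2 fold change at d20 0.74, limma adjusted p = 3.36e-15). *TNFAIP6*, which modifies the hyaluronan coat, had 4 reads at d0 and was at least 23.39-fold higher at d20. It passed the filter and was named only through its d20 values (mean 63.8 ± 6.636), so this rise is given as description. *HAPLN3*, a link protein that joins hyaluronan to proteoglycans, rose by 0.78 (adjusted p = 0.00119).

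Of the enzymes that make the sugar precursors and the linker that joins a chain to its core protein, 8 of 12 rose at d20 and 1 fell. *XYLT1*, a xylosyltransferase that adds the first sugar of the chain, went from a mean of 79.92 ± 1.862 at d0 to 2191 ± 98.03 at d1 and 2281 ± 4.479 at d20 (log2 fold change at d20 4.82, limma adjusted p = 1.76e-22). Its relative *XYLT2* rose by 1.01 (adjusted p = 8.77e-14), and *PAPSS2*, which makes the sulfate donor, rose by 2.80 (adjusted p = 2.13e-13). Of the chondroitin and dermatan sulfate enzymes, 12 of 14 tested genes rose and 1 fell, with a median of 0.69. Among them the sulfotransferases *CHST11* and *CHST15* rose by 1.47 and 1.46 (adjusted p = 9.25e-17 and 2.99e-14), and *CHPF2*, which acts in chain extension, by 1.20 (adjusted p = 6.34e-10).

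Of the heparan sulfate enzymes, 10 of 16 tested genes rose at d20 and 4 fell, with a median of 0.20. The 3 with the largest changes, among those called with a timepoint mean of at least 50, were all heparan sulfate 3-O-sulfotransferases, which add a rare sulfate to the finished chain. *HS3ST3A1* went from a mean of 37.34 ± 1.7 at d0 to 411.5 ± 41.63 at d1 and 586.4 ± 40.13 at d20 (log2 fold change at d20 3.94, limma adjusted p = 7.5e-19), and *HS3ST3B1* rose by 1.50 (adjusted p = 2.57e-06). *HS3ST2* had 3 reads at d0 and was at least 14.45-fold higher at d20. Setting the genes with at most 3 reads in each d0 library at these lower bounds left the median of all 69 genes at 0.50.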

How the data were processed

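RNA-seq values were used for 21 libraries of HMLE cells. The authors deposited a normalised signal per gene symbol and library, which is a read count divided by 1 size factor per library. STAR 2.7, Salmon 1.4 and the build hg19 are named in the submitters' processing notes, and their roles, the annotation and the strand setting are not given in the sources used here. Multiplying back by that factor gave a whole number of reads, within 0.1 read, for 100% of values, with totals between 18847917 and 22667754.

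Genes with a mean of at least 10 (13343 genes) entered a trended limma fit (version 3.58.1, R 4.3.3) of log2(value + 1), with 1 mean per timepoint and Benjamini-Hochberg adjustment within each contrast. A gene was called at an adjusted p under 0.05. Fold changes on this scale understate the change of low genes. On the recovered reads, edgeR 4.0.16 (quasi-likelihood test) called 8053 genes at d1 and 8459 at d20, beside 7978 and 8365 by limma, and DESeq2 1.42.0 called 7615 and 7997. The study describes biological triplicates, but the labels do not say that the libraries came from separate cultures, and if they did not, p-values measure technical spread only. The columns carry no replicate numbers.

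The genes, the pathway lists and the tests were chosen with earlier results of these data known. Named genes are the 10 members, the 3 genes most like each tested member, and, from each pathway list, up to 3 genes called at d20 with a timepoint mean of at least 50 and the largest change. Alternatives were a pseudocount of 10, no filter, quantile normalization, rescaling to the same total, both count tests, only the 2 timepoints compared, a 2-fold minimum and each library left out. Promoters came from a RefSeq table (GRCh38.p14), exon overlaps from GENCODE 29. Python 3.11.15, pandas 2.3.3 and matplotlib 3.10.9 were used.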

Additional observations from a re-analysis of the deposited data

How the results depend on the processing

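No paired analysis was possible because the libraries' columns are not numbered. Of the counts of genes called, 308 of 336 values under the alternatives stayed within 1.5 times of those reported. With a 2-fold minimum, the members higher were 3 at d7, 2 at d10, 1 from d4 to d7 and 3 from d10 to d15, the members lower were 1 at d1, 1 from d10 to d15, 2 from d7 to d10 and 0 at d4, at d10, from d1 to d4 and from d15 to d20, and the other pathway genes at d20 were 16 higher and 4 lower. Quantile normalization gave 1 member higher at d1, 2 at d4 and 3 from d10 to d15, and 1 lower at d15 and 2 at d20. Rescaling to the same total gave 2 members higher at d10, and 1 lower at d15 and 3 at d20. With only the 2 timepoints compared, 1 member was lower at d20 (*HAS3*) and 3 from d15 to d20 (*BGN*, *GPC1* and *HAS3*). Leaving out 1 library gave 0 to 2 members lower from d1 to d4 and 2 to 5 higher from d4 to d7. No share of all genes was taken under the alternatives in this paragraph. These counts therefore show only how the reported counts moved.

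For single genes, 1201 of 1344 values kept direction and call. In 35 the direction changed. Among genes called as reported, these were *SDC1* at d4 (-0.050 with quantile normalization, -0.038 with rescaling), *HAS2* at d4 (-0.189) and d7 (-0.369) with quantile normalization, and *SDC4* at d20 (-0.029 with quantile normalization, -0.082 with rescaling). The other direction changes were in differences not called. Rescaling gave -0.026 for *HAS3* at d7 and -0.026 for *SDC1* from d7 to d10. Quantile normalization gave -0.007 for *HAS3* at d7, -0.020 for *SDC1* from d7 to d10, and 0.015 for *SDC1* and 0.096 for *SDC2* from d15 to d20. For *HAS2* from d4 to d7, edgeR gave 0.021 and DESeq2 0.005, and for *SDC1* from d7 to d10 they gave -0.010 and -0.001. Leaving out 1 library gave -0.258 to 0.137 for *HAS3* at d4, -0.129 to 0.612 at d7 and -0.004 to 0.737 from d4 to d7, -0.041 to 0.001 for *SDC1* at d15 and -0.056 to 0.060 from d7 to d10, -0.034 to 0.009 for *GPC1* at d20, -0.352 to 0.095 for *HAS2* from d4 to d7, and -0.129 to 0.050 for *VCAN* and -0.227 to 0.078 for *SDC2* from d15 to d20.

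Quantile normalization also ended the calls of *SDC1* at d1, d10 and from d1 to d4 (adjusted p = 0.953, 0.0558 and 0.22 in limma), of *BGN* at d7 and from d1 to d4 (0.0755 and 0.145), of *HAS3* at d10 and from d10 to d15 (0.0657 and 0.565) and of *SDC2* from d10 to d15 (0.053). The cause was not tested. Depth limits *DCN*, *LUM*, *FMOD* and most *HAS2* values, which rest on at most 5 reads per library outside d10 and d20.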
